A study of Mus musculus with 65 samples.

Results

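Single-direction promoters with S5P polymerase are transcription start sites (TSSs) that carry RNA polymerase II phosphorylated on serine 5 of its repeated tail and that have no TSS on the opposite strand close by. They were taken from the deposited list of 5 kb regions around annotated Ensembl TSSs, after duplicates were removed. A TSS was a member when a peak of the deposited S5P ChIP list overlapped the 500 bp on either side of it and no opposite-strand TSS lay within 1000 bp. The rule gave 3985 of 32004 TSSs (12.5%), 2064 on the plus and 1921 on the minus strand. Another 1602 TSSs carried S5P polymerase but had an opposite-strand TSS in reach, and 24277 single-direction TSSs had no S5P peak. Of the members 3275 were named for protein-coding genes, 101 for snoRNA, 48 for miRNA, 32 for snRNA and 78 for long non-coding RNA genes, while 428 had no RefSeq gene end within 1000 bp on their strand.

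RNA polymerase II starts transcription when TFIIH opens the promoter DNA with its XPB subunit and its kinase phosphorylates serine 5, so serine 5 phosphorylation is a mark of polymerase that has initiated or is paused near the start. Release into elongation needs the CDK9 kinase. Triptolide blocks XPB and thereby initiation, and DRB blocks CDK9 and thereby pause release. A replication fork removes nucleosomes, transcription factors and polymerase from the DNA, and promoters have to become accessible again on both daughter copies.

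The series measured accessibility in mouse E14TG2a embryonic stem cells of strain 129/Ola (passages 5-28), grown without feeder cells on gelatin in 15% serum with LIF. In repli-ATAC-seq the transposase Tn5 cuts accessible chromatin of cells that had 20 uM EdU for 10 min, and the EdU-labelled fragments are pulled out on streptavidin beads. Cells were taken at once (nascent) or after a chase in 10 uM thymidine, and a time series of nascent, 30 min, 1 h, 2 h and untreated steady-state cells was deposited as 1 peak list per time. In the inhibitor experiment cells were kept in DMSO (the solvent control), in DRB or in triptolide for 2 h ahead of the pulse. The captured EdU fragments and the supernatant left unbound were each sequenced, nascent and after 2 h, in 3 libraries for each of the 12 groups. A further pair of groups, nascent and 2 h without inhibitor, received 100 EdU-labelled Drosophila S2 cells per sample and had 2 libraries each. The sources used here give neither the drug doses nor whether the chase medium held the drug. All cells came from 1 line, and the labels do not say that libraries came from separate cultures, so p-values here reflect only how far these samples spread, which may be technical.

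The sequences below are the 150 bases ahead of the RefSeq start of 10 members on which the results turn, written 5′ to 3′ on the gene's strand (RefSeq, GRCm38.p6). The first 4 are histone genes, a group of which 27 of 27 members rose after replication and 26 of 27 fell with triptolide at 2 h. Mcm6, Flvcr1 and Mxd4 are among the largest nascent losses with triptolide, B3galt4 and Tubb4b among the largest at 2 h, and Junb rose with DRB. Capitals mark matches, on either strand, to TATAAA (the core of the TATA box), to CCAAT (bound by NF-Y), to GGGCGG (the GC box), to CCGGAAG (an ETS family motif), to ATGGCGG (bound by YY1) and to the E2F family motifs TTGGCGC or, in another form, TTCGCGC.
H1f3 (chr13:23554882-23555031, plus strand): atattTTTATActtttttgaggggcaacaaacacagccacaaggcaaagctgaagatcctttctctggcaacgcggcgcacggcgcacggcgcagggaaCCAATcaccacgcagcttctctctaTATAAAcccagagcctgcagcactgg
H1f5 (chr13:21780626-21780775, minus strand): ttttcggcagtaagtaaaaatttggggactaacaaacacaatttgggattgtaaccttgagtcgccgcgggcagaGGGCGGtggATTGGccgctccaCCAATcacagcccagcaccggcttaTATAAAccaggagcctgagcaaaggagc
H4c4 (chr13:23581418-23581567, plus strand): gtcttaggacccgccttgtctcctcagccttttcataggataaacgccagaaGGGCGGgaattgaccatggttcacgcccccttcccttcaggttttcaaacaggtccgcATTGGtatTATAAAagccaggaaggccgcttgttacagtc
H4c9 (chr13:22041363-22041512, minus strand): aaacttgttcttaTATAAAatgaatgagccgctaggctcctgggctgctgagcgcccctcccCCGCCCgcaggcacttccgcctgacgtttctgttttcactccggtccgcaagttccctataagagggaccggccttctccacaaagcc
Mcm6 (chr1:128359706-128359855, minus strand): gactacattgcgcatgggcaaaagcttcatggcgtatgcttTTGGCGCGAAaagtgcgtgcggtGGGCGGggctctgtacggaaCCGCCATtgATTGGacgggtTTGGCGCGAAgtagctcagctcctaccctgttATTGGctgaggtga
Flvcr1 (chr1:191026191-191026340, minus strand): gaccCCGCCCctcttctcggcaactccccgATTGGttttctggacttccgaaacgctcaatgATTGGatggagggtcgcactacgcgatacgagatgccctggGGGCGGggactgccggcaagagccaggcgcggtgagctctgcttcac
Mxd4 (chr5:34187711-34187860, minus strand): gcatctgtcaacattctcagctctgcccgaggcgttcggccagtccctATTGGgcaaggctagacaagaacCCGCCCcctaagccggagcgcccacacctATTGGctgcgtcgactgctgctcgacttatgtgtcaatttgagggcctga
B3galt4 (chr17:33951489-33951638, minus strand): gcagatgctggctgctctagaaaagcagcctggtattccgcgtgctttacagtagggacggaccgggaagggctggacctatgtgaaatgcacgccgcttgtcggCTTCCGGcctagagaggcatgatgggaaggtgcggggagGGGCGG
Tubb4b (chr2:25224703-25224852, minus strand): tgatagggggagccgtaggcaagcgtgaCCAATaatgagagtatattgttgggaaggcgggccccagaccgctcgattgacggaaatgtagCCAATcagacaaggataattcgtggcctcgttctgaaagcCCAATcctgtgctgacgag
Junb (chr8:84978749-84978898, minus strand): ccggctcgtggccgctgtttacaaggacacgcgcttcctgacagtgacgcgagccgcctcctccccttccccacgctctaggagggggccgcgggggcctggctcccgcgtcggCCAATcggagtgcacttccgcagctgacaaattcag

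In H1f3, H1f5 and H4c4 a TATAAA ended 21, 23 and 27 bases before the start, while H4c9 held its only TATAAA match at 137 to 132 bases before the start. Only exact matches were marked, so a variant TATA box nearer the start of H4c9 would not show. CCAAT stood at 51 to 47 bases in H1f3 and at 53 to 49 bases in H1f5. The Mcm6 promoter held TTGGCGC at 109 to 103 and at 46 to 40 bases, each overlapping a TTCGCGC match on the opposite strand. Tubb4b held CCAAT 3 times. Over the same 150 bases of all 32851 promoters of the RefSeq table, TATAAA was found in 7.57%, CCAAT in 24.5%, GGGCGG in 28.6%, CCGGAAG in 5.52%, ATGGCGG in 1.36%, TTGGCGC in 1.35% and TTCGCGC in 0.889%. The table held a promoter for 2652 members (66.5%), and for 2591 of the 3275 protein-coding ones (79.1%), so a check of base composition or motifs over the members as a set is void.

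The members were chosen by the S5P peak list and by the distance to opposite-strand TSSs, so these values are described without a test. The S5P peak lay over the TSS itself at 2639 members, its nearest edge was up to 250 bp away at 1021 and between 250 and 500 bp away at 325. In the last 50 bp inside the 500 bp limit lay the edges of 37 members, and in the first 50 bp outside it those of 54 single-direction TSSs. An opposite-strand TSS lay in the first 50 bp beyond the 1000 bp limit in 18 members and in the last 50 bp within it in 11 S5P promoters that were left out. The median distance to the nearest opposite-strand TSS was 32262 bp. The S5P peak was centred a median of 87 bp downstream of the TSS (quartiles −7.5 and 207.5 bp) and was 425 bp wide (225 to 650 bp). Its centre was downstream in 73.1% of members, against 53.1% of the S5P promoters with an opposite TSS, whose median centre was 19.5 bp downstream. Among the widest peaks at protein-coding members were those over Rpl10a (4725 bp), the mitochondrial gene ND1 (4550 bp), Ptma (3850 bp) and Rpl3 (3375 bp). Besides ribosomal proteins, they included the immediate early gene Ier2 (3150 bp) and the developmental regulator Foxl2 (2750 bp). Of the members 10 lay on the mitochondrial chromosome, ND1 among them. Whether S5P peaks there reflect RNA polymerase II was not tested.

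Accessibility was read in the deposited 1 kb window nearest each TSS, in RPM (reads scaled to the library's total), and all windows have the same length. A window was found for 3981 members, of which 114 shared it with another member, and 3968 passed the filter on low values in the EdU and 3970 in the unbound fraction. Libraries held 1299334 to 5554604 reads in the EdU and 2351201 to 14363372 reads in the unbound fraction, so a member's window held a median of 2 to 11 reads in nascent EdU, 8 to 21 in 2 h EdU and 17 to 93 in unbound libraries. The precision of single nascent values is limited accordingly. In unbound nascent DMSO chromatin, pluripotency genes had a median of 6.56 RPM at their best TSS and 20 of 33 carried S5P polymerase. The other marker lists stood at 4.30 RPM for primitive endoderm (3 of 12 with S5P), 3.78 for trophectoderm (2 of 7), 3.25 for fibroblasts (2 of 10), 4.76 for neural and germ layer genes (8 of 12) and 0.12 for the 2-cell-like state (0 of 10).

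Most members had a peak already in nascent chromatin. The nascent list held 3242 members (81.4%, Wilson 95% interval 80.1 to 82.5%), the 30 min list 86.5% (85.4 to 87.5%), the 1 h list 89.5% (88.5 to 90.4%), the 2 h list 96.5% (95.8 to 97.0%) and the steady-state list 98.8% (98.5 to 99.1%). The same shares over all TSSs were 33.8, 39.7, 42.8, 47.9 and 53.9%, and over single-direction TSSs without S5P 20.0, 26.0, 29.2, 33.6 and 40.5%. S5P promoters with an opposite TSS stood at 86.9, 89.8, 91.6, 98.1 and 98.6%. These differences were not tested, since there is 1 list per time, its depth is unknown, and the intervals cover counting error only.

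**Figure D1:**
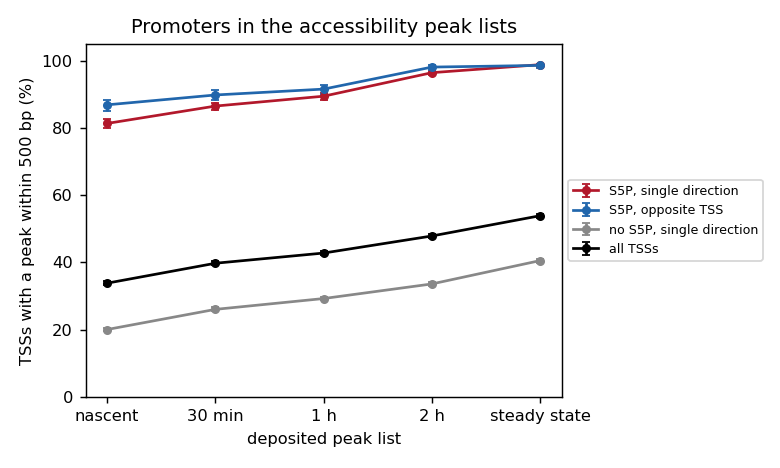
Share of TSSs with a peak in each of the 5 peak lists, in percent, for the 3985 single-direction S5P promoters, the 1602 S5P promoters with an opposite TSS, the 24277 single-direction TSSs without S5P and all 32004 TSSs, with Wilson 95% intervals. The members go from 81.4% in the nascent to 98.8% in the steady-state list.

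Of the members 405 were first seen in the 30 min list, 131 at 1 h, 116 at 2 h and 56 only at steady state, and 35 were in no list. Once seen, 3591 members (90.1%) stayed in every later list, whereas 278 were in the nascent list and missing from a later one. The peak around the TSS shifted and widened: its centre was 56.5 bp downstream in the nascent list, 13.5 and 7.5 bp upstream at 30 min and 1 h, 57.5 bp downstream at 2 h and 117 bp downstream at steady state, and its median width went from 750 bp in the nascent to 1000 bp in the 2 h and 1275 bp in the steady-state list. At S5P promoters with an opposite TSS the median centre stayed between 28.5 bp upstream and 1.75 bp downstream. At single-direction TSSs without S5P it was 32.5 bp downstream in the nascent list, 4.5 bp upstream at 30 min, 4 bp downstream at 1 h, 38.5 bp in the 2 h list and 78.5 bp in the steady-state list, with median widths from 550 to 875 bp. Differences between these promoter classes were not tested. H1f3, H1f5 and H4c4 were first seen in the 30 min list, while H4c9, Mcm6, Flvcr1, Mxd4, B3galt4, Tubb4b and Junb were in the nascent list.

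The mean level of the members was 2.98 ± 0.07 RPM (SD, n = 3) in nascent EdU chromatin with DMSO and 7.45 ± 0.38 RPM after 2 h. With DRB it was 2.01 ± 0.17 and 5.95 ± 0.49 RPM, and with triptolide 1.48 ± 0.05 and 2.97 ± 0.09 RPM. The libraries of the 3 agents did not overlap at either time in the EdU fraction. In the unbound fraction DMSO gave 8.42 ± 0.21 RPM nascent and 7.69 ± 0.36 RPM at 2 h, DRB 7.67 ± 0.39 and 7.63 ± 0.51 RPM, and triptolide 7.75 ± 0.24 and 5.86 ± 0.36 RPM. Set against windows away from all peaks in the same library, the members stood 9.64 times higher in nascent and 38.4 times higher in 2 h EdU chromatin with DMSO, and 4.47 and 12.4 times higher with triptolide.

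**Figure D2:**
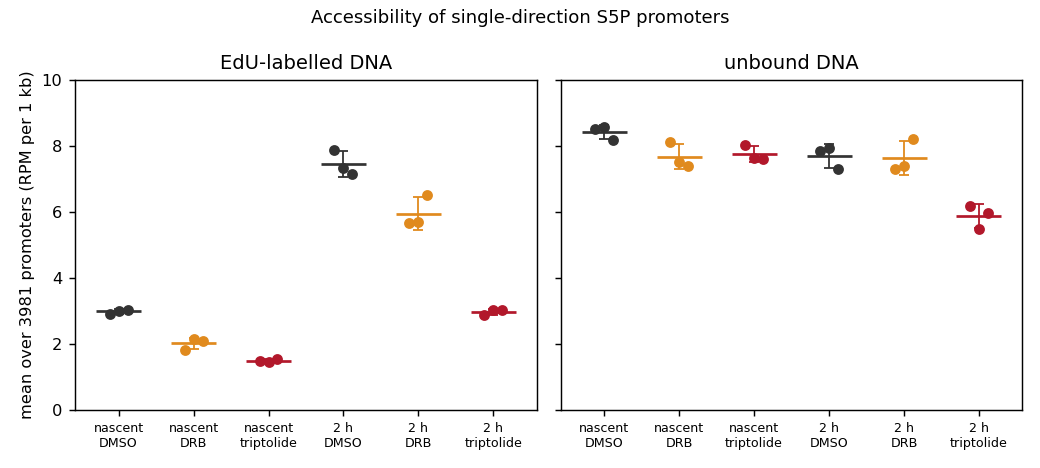
Mean accessibility of the members in RPM for each library (points) of the 12 inhibitor groups, with the group mean and SD, in the EdU and the unbound fraction. In the EdU fraction DMSO is highest and triptolide lowest at both times, from 7.45 to 2.97 RPM at 2 h.

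After 2 h in DMSO accessibility had risen at 2471 of 3968 tested members (62.3%) and fallen at 7, with a median log2 difference of 0.99, where 31.2% of all tested TSSs had risen and 1.64% had fallen, with a median of 0.34 (limma, Benjamini-Hochberg adjusted p under 0.05). The share was 65.9% (median 1.04) at S5P promoters with an opposite TSS, a difference that was not tested. The 3 nascent and 3 mature libraries did not overlap at 2364 of the 2471. Here and below such counts cover called members, which the test itself favours to be apart. They were not made over all TSSs. When each library was centred on its median TSS the share of members that rose was 31.8%, and centring moved the median of all TSSs by 0.42. Log2 differences here and below are on the scale of log2(RPM + 1), which understates the change of low windows.

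Of replication-dependent histone genes, which are transcribed in S phase, 27 of 27 members rose, with a median log2 difference of 2.04. The H3 gene H3c6 had 1.15, 0.505 and 1.06 RPM in the nascent libraries and 19.0, 12.9 and 10.8 RPM after 2 h, a log2 difference of 2.98 ± 0.33 (SE, limma adjusted p = 8.2e-13). The linker histone gene H1f3 went from 0.577, 1.51 and 1.85 to 12.3, 10.1 and 21.8 RPM (2.74 ± 0.33, limma adjusted p = 1.3e-11), and H1f5 and the H4 gene H4c4 rose by 2.67 and 2.62. Nascent and 2 h libraries lay far apart at each of these genes. Near-identical histone copies can share reads, so the values of single copies are uncertain. Of small nuclear RNA genes 29 of 32 members rose, with a median of 2.38, and those with near-identical copies carry the same limit. Rnu11, a component of the minor spliceosome with a single gene, had 1.15, 2.02 and 3.44 RPM in nascent and 16.6, 18.3 and 16.6 RPM in 2 h libraries (2.56 ± 0.32, limma adjusted p = 8.1e-11). Rnu11 and other small RNA genes named here lie outside the rule for naming genes and were chosen after their values were seen.

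Among genes of pluripotency 14 of 17 members rose (median 1.12), led by Trim28, a corepressor of retroviral elements, with 2.31, 5.05 and 5.82 RPM in nascent and 21.8, 21.6 and 22.1 RPM in 2 h libraries (2.15 ± 0.29, limma adjusted p = 1.6e-09), and by the transcription factor Klf5 (1.64). Nanog, a core pluripotency factor, went from 4.04, 2.52 and 3.17 to 8.28, 15.5 and 9.96 RPM (1.5 ± 0.31, limma adjusted p = 3.4e-05). Sox2 rose by 1.11 and Myc by 1.29, whereas the value for Klf4 was 0.69 (limma adjusted p = 0.13). The libraries of both times were apart for Trim28 and Nanog. Of cell cycle genes 17 of 19 rose (1.22), with Cdc20, an activator of the anaphase-promoting complex, at 2.06. Of replication fork genes 13 of 14 rose (1.12), with the single-strand binding subunit Rpa2 at 1.75 and the helicase subunit Mcm6 at 0.83. The Mcm6 call was lost without any 1 of 5 libraries (limma adjusted p up to 0.15, without 2 h DMSO replicate 2). Of chromatin remodeller and Polycomb genes 22 of 29 rose (1.10), with Actl6a at 2.00 and Mbd3 at 1.85, and of polymerase II initiation and pausing genes 15 of 19 (1.03), with Gtf2a1 at 1.5 and Nelfa at 1.36.

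Of cytosolic ribosomal protein genes 27 of 61 passed, with a median of 0.75, among them Rpl39 (1.80). Of immediate early genes 11 of 20 passed (0.89), among them Ccn2 (2.31) and Fos (1.52), and of Polycomb-bound developmental regulators 17 of 35 (0.82), with Atoh1 (1.75) and Hoxc13 (1.65). Of translation factors 13 of 23 passed, of splicing genes 15 of 22 with Hnrnpc at 1.83, of chaperones 8 of 11 with Dnaja1 at 1.90, of glycolysis genes 8 of 9 with Ldhb at 2.07, and of p53 targets 9 of 13 with Rrm2b, a ribonucleotide reductase subunit, at 2.04. Gapdh had a value of 0.66 (limma adjusted p = 0.087). The phosphatase gene Mtmr4 rose by 2.93. The only protein-coding gene among the 7 members that fell was Grin2c, an NMDA receptor subunit, which went from 2.31, 3.53 and 1.85 to 0.613, 0.36 and 0.553 RPM (−1.22 ± 0.38, limma adjusted p = 0.0069). No library of one time reached those of the other at Grin2c. Members seen in the nascent peak list rose in 67.1% of cases, those first seen at 30 min in 54.8%, at 1 h in 35.9% and at 2 h in 19.0%. The lists come from libraries other than those tested. These shares were not matched for the level of the members, and changes at windows with few reads are harder to call.

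With S2 cells added, 2381 of 3971 tested members rose between nascent and 2 h and none fell, with a median log2 difference of 1.41, where 30.1% of all TSSs rose and 1.35% fell (limma, 2 libraries a group, 5 kb regions). All 27 histone members rose here too, with a median of 3.57, led by H3c3 (4.79), H1f3 (4.47) and H2bc3 (4.38). Polycomb-bound regulators passed in 30 of 35 cases (1.61). The DMSO and the spike-in libraries share no sample. In both, 1790 members rose, 72.4% of the first list and 75.2% of the second, an overlap not counted over all TSSs. The sources used here do not say how the S2 reads entered the deposited values. This count depends on single libraries: it was 0% without either 2 h spike-in replicate 1 or 2 and 98.6% without nascent spike-in replicate 2, and 2.39% with the replicate number as a block.

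Triptolide lowered accessibility behind the fork at 1132 of 3968 members (28.5%) and raised it at 1, with a median of −0.66, where 11.6% of all TSSs fell and 0.45% rose, with a median of −0.23 (limma). Libraries of both groups were apart at 1041 of the 1132. The replication fork genes Mcm6 and Gins4 were among the largest losses. Mcm6, a subunit of the replicative helicase, had 5.19, 5.05 and 4.76 RPM with DMSO and 0, 0.453 and 0.72 RPM with triptolide (−2.14 ± 0.32, limma adjusted p = 6.2e-07). Gins4, which belongs to the same helicase, went from 8.65, 6.06 and 6.08 to 0.348, 0.453 and 1.08 RPM (−2.30 ± 0.30, limma adjusted p = 3e-08). The haem exporter gene Flvcr1 went from 6.92, 6.06 and 8.99 to 0.696, 1.36 and 0.9 RPM (−2.07 ± 0.29, limma adjusted p = 4.3e-07). Every triptolide library was below every DMSO library at these 3 genes. Tex19.1, a germ line and stem cell gene, had 6.34, 4.54 and 2.12 RPM with DMSO and was at 0 reads in all 3 triptolide libraries. The nuclear receptor gene Nr2c2 (−2.19), Higd1a (−2.12) and the Max partner gene Mxd4 (−2.12) complete the largest losses among coding genes. The share without nascent triptolide replicate 2 was 17.9%, and with centring it was 10.6%, centring moving the median of all TSSs by −0.23.

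Against 28.5% of all members (median −0.66), 5 of 14 fork genes fell with triptolide in nascent chromatin (median −0.78). So did 10 of 19 cell cycle genes (−0.99), with the cyclins Ccna2 and Ccnd1 at −1.38, and 8 of 19 polymerase II genes (−0.83). Differences between roles and all members were not tested. Among the polymerase II genes was Hexim1, an inhibitor of CDK9, with 6.34, 8.08 and 5.29 RPM in DMSO and 1.04, 1.36 and 2.16 RPM in triptolide libraries (−1.59 ± 0.31, limma adjusted p = 9.9e-05). Cytosolic ribosomal protein genes fell in 29 of 61 cases (−0.91), led by Rpl35 (−1.83) and Rpl6 (−1.80), and translation genes in 7 of 23 with Nop56, a snoRNP core protein, at −1.90. Of splicing genes 7 of 22 fell with Srsf5 at −1.70, of chaperones 3 of 11 with Hspa8 at −1.65, and of chromatin genes 8 of 29 with Chd1 at −1.31. Pluripotency genes fell in 3 of 17 cases (−0.56), with Sox2 at −1.04 and Mycn at −1.14, while Nanog had −0.41 (limma adjusted p = 0.43). The Sox2 call was lost without triptolide replicate 3 (limma adjusted p = 0.077), that of Mycn without triptolide replicate 1 (0.11) or DMSO replicate 2, and that of Chd1 without DMSO replicate 2 (0.058) or triptolide replicate 2.

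Few members of 3 groups passed at this time. Polycomb-bound regulators had 1 of 35 that fell, Msx1 (median −0.23, near the median of all TSSs), immediate early genes 2 of 20 (−0.51) and replication-dependent histones 2 of 27 (−0.45). The Msx1 call was lost without any 1 of 4 libraries (limma adjusted p up to 0.15, without triptolide replicate 2). H1f3 had 2.43, 1.81 and 0.9 RPM with triptolide against 0.577, 1.51 and 1.85 RPM with DMSO (0.23, limma adjusted p = 0.72), so its libraries overlapped at a level of few reads. The only member that rose was Nkx2-1, a developmental regulator with 0, 0 and 0.265 RPM in DMSO and 2.43, 0.453 and 1.44 RPM in triptolide libraries (1.09 ± 0.38, limma adjusted p = 0.044). That call was lost without any 1 of 5 of the 6 libraries (limma adjusted p up to 0.26, without triptolide replicate 1). Members in the nascent peak list fell in 32.9% of cases, those first seen at 30 min in 12.8% and at 1 h in 6.11%. A nascent peak requires nascent signal, and falls are harder to call at windows with few reads. The shares were not matched for level.

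DRB gave fewer calls in nascent chromatin: 272 members fell (6.85%) and 3 rose, with a median of −0.42, where 3.37% of all TSSs fell and 0.282% rose, with a median of −0.18. The transferrin receptor gene Tfrc had 5.77, 5.05 and 3.44 RPM with DMSO and 0.473, 0 and 1.51 RPM with DRB (−1.87 ± 0.31, limma adjusted p = 4.2e-05). The ribosomal stalk gene Rplp1 went from 6.34, 2.52 and 3.44 to 0, 0 and 1.21 RPM (−1.90 ± 0.35, limma adjusted p = 0.00043). DRB libraries lay below all DMSO libraries at both genes. The endosome gene Appl1 fell by 1.84, Kifbp by 1.79, the adaptor subunit gene Ap2a2 by 1.78 and Avl9 by 1.75. Mcm6 fell too, to 2.36, 0.77 and 3.02 RPM (−1.06, limma adjusted p = 0.039), as did the Polycomb subunit Suz12 (−1.30), the pluripotency genes Utf1 (−1.24) and Klf2 (−1.14), and Supt5, a subunit of the pausing factor DSIF (−0.99). Lmo4, a LIM domain cofactor, rose by 1.14 (limma adjusted p = 0.029), with libraries that were apart. No histone member passed, and their median was 0.05. Without 1 library the calls of Mcm6 (limma adjusted p up to 0.24), Suz12 (0.24) and Klf2 (0.16) were lost, each at DRB replicate 2, as were those of Supt5 (up to 0.17) and Utf1 (up to 0.11) at DMSO replicate 3 and of Lmo4 (up to 0.17) at DMSO replicate 1.

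The nascent DRB count is set by the fit to a large degree. It was 1.26% when only the DRB and DMSO libraries entered the fit, 0.731% with limma-voom on recovered reads, 2.44% without the filter on low windows and 2.04% with centring. It was 3.30% without nascent DMSO replicate 2 and 4.03% without nascent DMSO replicate 3. Set directly against DRB, triptolide was lower at 54 members and higher at 1, with a median of −0.24, where 0.577% of all TSSs were lower and 0.0873% higher. Srm, the spermidine synthase gene, had 0.348, 0.453 and 1.62 RPM with triptolide and 4.26, 5.39 and 3.93 RPM with DRB (−1.67 ± 0.31, limma adjusted p = 0.0056), groups that did not overlap. Lower with triptolide than with DRB were also Ino80c (−1.57), Pex7 (−1.55), Lmo4 (−1.5), Ticrr (−1.45), Gins4 (−1.37) and Hspa8 (−1.37), whereas Appl1 was higher (1.23). Of these, the calls of Ino80c, Pex7 and Ticrr (limma adjusted p up to 0.19, 0.089 and 0.075, without DRB replicate 2), Lmo4 (0.085, without triptolide replicate 1), Gins4 (0.055, without triptolide replicate 2) and Appl1 (0.18, without triptolide replicate 3) were lost. The share lower was 1.36%. It was 2.22% without DRB replicate 1, 0.58% without DRB replicate 2, 0.302% without triptolide replicate 1 and 0.454% without triptolide replicate 2, and no member passed when only the compared groups were fitted.

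At 2 h triptolide lowered 2475 members (62.4%) and raised 13, with a median of −1.02, where 28.6% of all TSSs fell and 2.72% rose, with a median of −0.29. The groups were apart at 2415 of them. Triptolide and DMSO libraries of the 2 times are separate samples. At both times 996 members fell, 88.0% of those lower in nascent and 40.2% of those lower at 2 h. That overlap was not counted over all TSSs. The 2 h DMSO libraries also serve the comparison of 2 h with nascent, so the gains and these losses share samples. S5P promoters with an opposite TSS fell in 73.1% of cases (median −1.18), a difference not tested. With centring 37.0% of members fell, the median of all TSSs moving by −0.36.

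**Figure D3:**
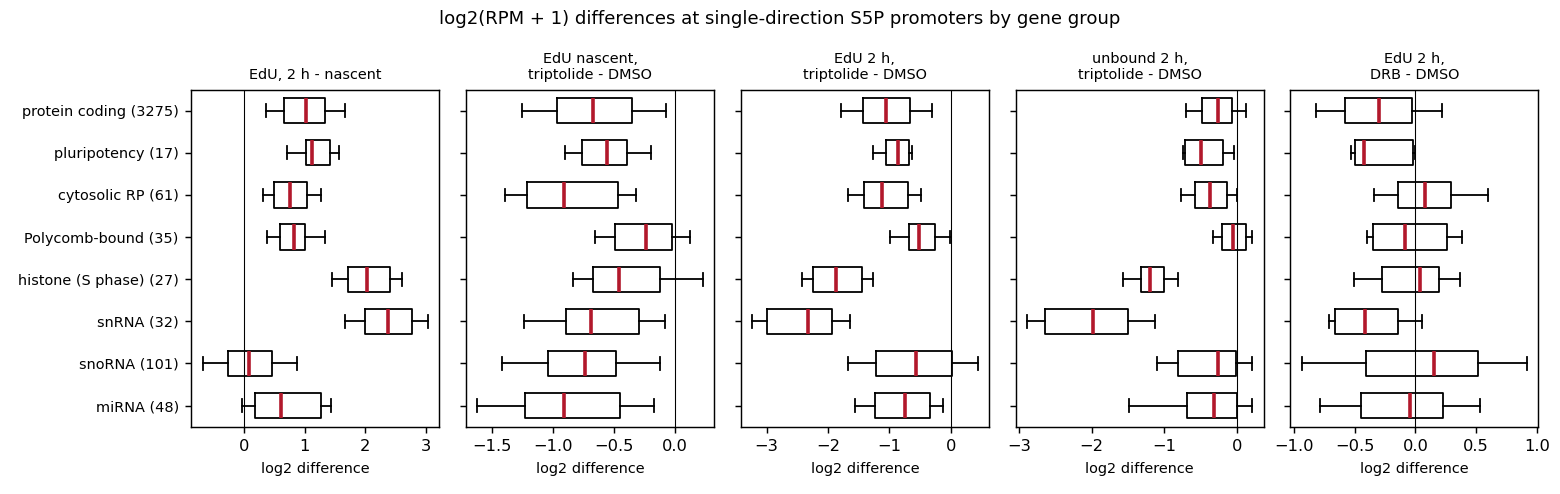
Log2 differences (log2 of RPM + 1) of the members by gene group in 5 comparisons, with the median as a red line, the quartiles as a box and the 10th to 90th percentile as whiskers. Small nuclear RNA genes and replication-dependent histones lie highest for 2 h against nascent (medians 2.38 and 2.04) and lowest with triptolide at 2 h (medians −2.33 and −1.87).

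Of histone genes 26 of 27 members fell at 2 h, with a median of −1.87. H4c4 had 12, 13.7 and 15.2 RPM with DMSO, 14, 16 and 20.3 RPM with DRB, and 0.864, 0.621 and 1.33 RPM with triptolide (−2.92 ± 0.32, limma adjusted p = 3.1e-13). H1f3 had 12.3, 10.1 and 21.8 RPM with DMSO, 10.5, 14.6 and 23.2 RPM with DRB, and 3.46, 0.931 and 2.66 RPM with triptolide (−2.25 ± 0.33, limma adjusted p = 1.2e-08). DMSO and DRB libraries overlapped at both genes and triptolide libraries lay below them. H3c6 fell by 2.43 and H1f5 by 2.25. The test of the difference between the 2 h and the nascent triptolide effect called 45 members lower and 2 higher, where 0.419% of all TSSs were lower and 0.0302% higher, and 7 of the 45 were histone members. H4c9 led with −2.61 (limma adjusted p = 0.00012), followed by H1f3 (−2.48) and H4c4 (−2.47). A window with few reads in nascent DMSO libraries, as at H1f3, had less room to fall in nascent chromatin on the log2(RPM + 1) scale. How far this limit enters the differences was not tested. The share of 1.13% was 0.605, 0.63 and 0.68% without 2 h DMSO replicate 1, 2 and 3.

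Small nuclear RNA genes fell in 29 of 32 cases at 2 h (median −2.33). Rnu11 had 16.6, 18.3 and 16.6 RPM with DMSO and 2.02, 1.55 and 1.33 RPM with triptolide (−2.79 ± 0.32, limma adjusted p = 2e-12), against 11.8, 12.7 and 7.54 RPM with DRB (−0.67, limma adjusted p = 0.36). Rnu7, which processes histone RNA ends and whose 2 TSSs share a window, had 22.7, 25.9 and 23.8 RPM with DMSO and 4.9, 3.72 and 3.46 RPM with triptolide (−2.33 ± 0.29, limma adjusted p = 6.5e-11). No triptolide library reached a DMSO library at either gene. In the interaction test 18 of the 32 passed with a larger fall at 2 h. Windows with low nascent levels carry the limit given above for H1f3. Of snoRNA members 35 of 101 fell, of miRNA members 24 of 48 and of protein-coding members 2123 of 3273. The windows of snoRNA members such as Snord14e, Snora3 and Snord68 overlap Hspa8, Rpl27a and Rpl13. Such starts need not be promoters of their own.

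Other groups fell with triptolide at 2 h as follows. Of fork genes 11 of 14 fell (−1.22) with Rpa2 at −2.44, of cell cycle genes 16 of 19 (−1.15) with Cdc20 at −2.69, of polymerase II genes 15 of 19 (−1.08) with Hexim1 at −2.30 and Polr2a at −1.14. Of splicing genes 17 of 22 fell (−1.26) with Srsf5 at −1.90, of translation factors 18 of 23 with Eif4g2 at −2.34, of cytosolic ribosomal protein genes 39 of 61 (−1.12) with Rpl10 at −2.41, and of chromatin genes 19 of 29 with Mbd3 at −2.69. Of pluripotency genes 12 of 17 fell (−0.86): Trim28 went from 21.8, 21.6 and 22.1 to 4.32, 4.66 and 4.25 RPM (−2.08 ± 0.29, limma adjusted p = 4.2e-09), Utf1 was at −1.80, Klf4 at −1.02 and Sox2 at −1.0, while Nanog had −0.66 (limma adjusted p = 0.094) and Myc −0.40 (limma adjusted p = 0.29). Trim28 libraries were far apart. Immediate early genes fell in 11 of 20 cases (−0.98) and Polycomb-bound regulators in 6 of 35 (−0.52), with Six2 at −1.64. Among the 13 that rose, the lactate dehydrogenase gene Ldhd (1.09), Spaca4 (1.07), Sdc4 (0.93) and Zfp532 (0.91) were protein-coding, and each of these 4 calls was lost without 1 library, as was that of Klf4. The limma adjusted p then reached 0.11 for Ldhd and 0.072 for Spaca4 (without triptolide replicate 2), 0.18 for Sdc4 and 0.38 for Zfp532 (without DMSO replicate 3) and 0.11 for Klf4 (without triptolide replicate 1).

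Several of the largest coding losses at 2 h lay beside another gene. B3galt4, a galactosyltransferase gene whose window overlaps Rps18 in the RefSeq table, had 36.8, 47.1 and 45.4 RPM with DMSO and 6.34, 4.66 and 4.79 RPM with triptolide (−2.82 ± 0.27, limma adjusted p = 5.7e-16). The meiotic gene Msh4, whose window ends 789 bp from Rabggtb, fell by 3.18, the tubulin gene Tubb4b by 2.71 and the kinase gene Prkaca by 2.75. The TSS named Lrrc75a went from 23.3, 34.5 and 39.0 to 2.59, 2.17 and 1.86 RPM (−3.35 ± 0.33, limma adjusted p = 1.8e-15), but it lies 882 bp from the end of that gene, and its window 695 bp from the long non-coding RNA gene 2410006H16Rik, so its name is only that of the nearest gene. All 3 DMSO libraries were above the triptolide libraries at each of these. Another protein-coding gene lay in or within 1000 bp of the window at 455 of the 3275 coding members (13.9%), at 337 of the 2123 that fell here (15.9%) and at 162 of the 961 that fell in nascent chromatin (16.9%). Which gene's promoter the signal belongs to was not tested.

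DRB at 2 h lowered 60 members (1.51%) and raised 13, with a median of −0.28, where 0.621% of all TSSs fell and 0.201% rose, with a median of −0.12. All 73 had libraries that were apart. Lrrc75a had 0, 2.61 and 1.45 RPM with DRB (−3.98 ± 0.33, limma adjusted p = 1.2e-19). Gramd2, whose window lies 129 bp from the pyruvate kinase gene Pkm, had 19.6, 29.1 and 25.7 RPM with DMSO and 2.18, 3.36 and 3.77 RPM with DRB (−2.66 ± 0.32, limma adjusted p = 3.5e-10). B3galt4 had 16.2, 14.9 and 13.6 RPM (−1.47 ± 0.27, limma adjusted p = 0.00041), between its DMSO and triptolide values. Msh4 (−2.09), 4930404N11Rik (−1.91), Dnajb14 (−1.76), Cd68 (−1.73) and Map1b (−1.58) fell as well. Of the 46 coding members lower with DRB, 21 had another coding gene within that reach (45.7%), among them Dnajb14 beside H2az1 and Cd68 beside Eif4a1. The part of such neighbours in the calls was not tested.

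Members that rose with DRB at 2 h included the immediate early gene Junb, with 3.98, 5.75 and 3.6 RPM in DMSO, 14.9, 13.8 and 13.6 RPM in DRB and 2.88, 5.59 and 5.32 RPM in triptolide libraries (1.49 ± 0.31 for DRB, limma adjusted p = 0.0031). The antiproliferative p53 target Btg2 had 4.90, 5.4 and 3.87 RPM with DMSO and 18.4, 10.8 and 13.6 RPM with DRB (1.40 ± 0.32, limma adjusted p = 0.01). Rps12 (1.28, limma adjusted p = 0.049) and the stress gene Sesn2 (1.13, limma adjusted p = 0.034) also rose. DRB libraries lay above the others at Junb and Btg2. The calls of Btg2 (limma adjusted p up to 0.14, without DRB replicate 1), Rps12 (0.41) and Sesn2 (0.42, both without DMSO replicate 2) were lost without 1 library, as was that of Map1b (0.051, without DMSO replicate 1). Histone members had a median of 0.04 and none passed. The share of members lower with DRB at 2 h was 11.2% when only the 2 compared groups were fitted, 6.33% with limma-voom, 10.4% (19 higher and 412 lower) with scaling to background windows, 4.06% over the mean of 3 windows, 0.655% (14 higher and 26 lower) with centring, 0.277% with a pseudocount of 0.25 and 0.553% without the filter. Leaving out 2 h DMSO replicate 1, 2 or 3 gave 0.504, 0.454 and 0.58%, and leaving out DRB replicate 1 or 2 gave 0.58 and 0.731%.

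**Figure D4:**
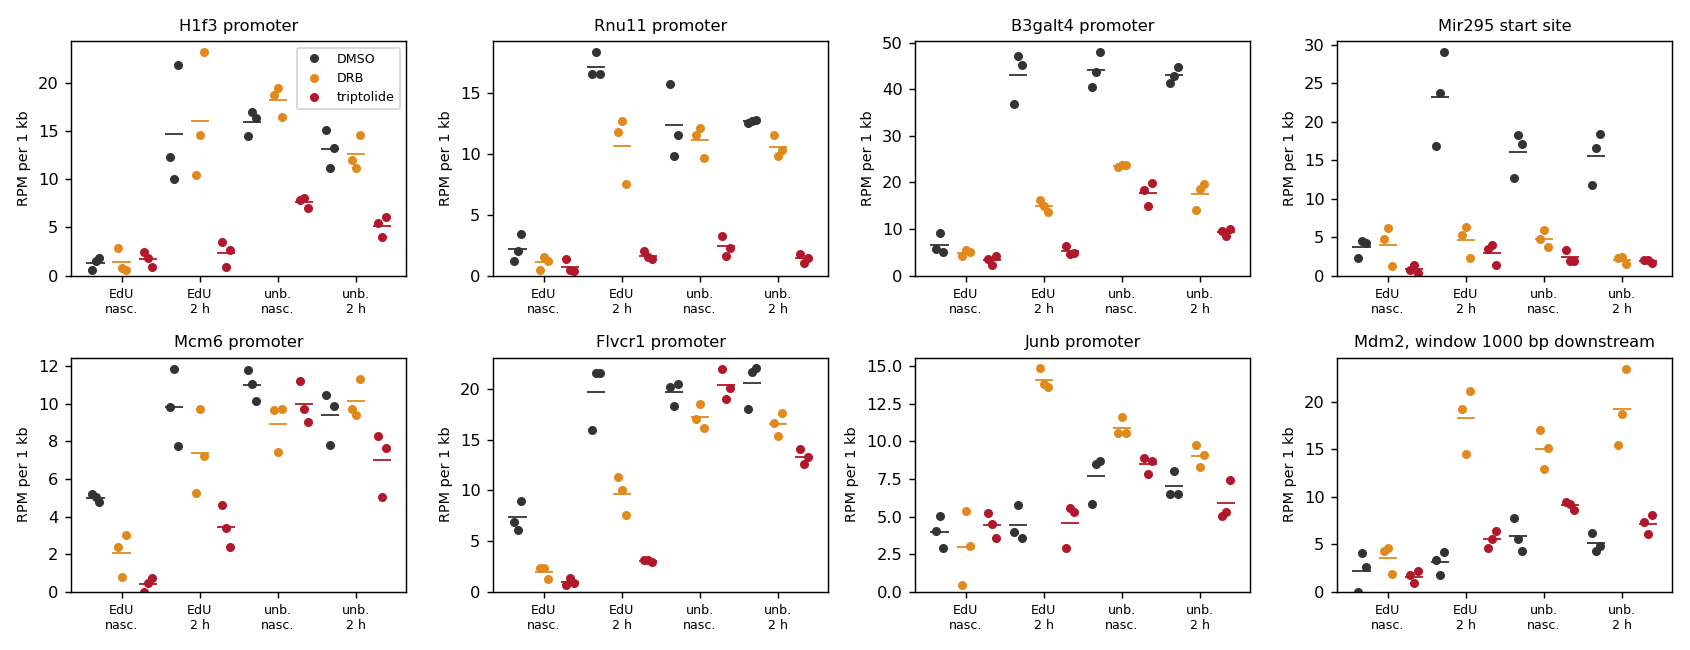
Accessibility in RPM of each library (points) and the group mean (lines) with DMSO (black), DRB (orange) and triptolide (red) at 8 windows: the start windows of H1f3, Rnu11, B3galt4, Mir295, Mcm6, Flvcr1 and Junb, and the window 1000 bp downstream of Mdm2, in EdU and unbound chromatin, nascent and at 2 h. At Junb the DRB libraries stand apart at 2 h in EdU (13.6 to 14.9 RPM), and at Mdm2 they stand above DMSO downstream of the start.

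In the unbound fraction, which holds chromatin that was not labelled in the pulse, no member differed between 2 h and nascent with DMSO (0.0% of all TSSs either way; limma and limma-voom, with 388 members at an unadjusted p under 0.05 in limma). Triptolide lowered 245 members in the nascent collection and raised 35, where 1.53% of all TSSs fell and 0.709% rose, and it lowered 1156 (29.1%) and raised 29 at 2 h, where 12.2% fell and 2.26% rose. DRB lowered 74 and raised 27 in the nascent collection, where 0.637% fell and 0.267% rose, and lowered 75 and raised 44 at 2 h, where 0.713% fell and 0.769% rose. With scaling to background windows 55.0% of members fell with triptolide at 2 h, and the DRB calls were 117 lower and 13 higher nascent and 102 lower and 14 higher at 2 h. Without nascent triptolide replicate 3 the share lower in the nascent collection was 3.90% in place of 6.17%. The DRB shares were 1.86% nascent, or 0.882, 0.882 and 0.705% without DMSO replicate 2 and DRB replicates 2 and 3, and 1.89% at 2 h, or 1.11 and 1.23% without DMSO replicate 2 and DRB replicate 2.

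Histone and small nuclear RNA genes fell in unbound chromatin too. With triptolide 22 of 27 histone members fell in the nascent collection (median −0.87) and 27 of 27 at 2 h (−1.20). H4c4 had 10.8, 13.1 and 13 RPM with DMSO and 3.11, 3.28 and 2.62 RPM with triptolide at 2 h (−1.73 ± 0.14, limma adjusted p = 5.3e-13). Of small nuclear RNA members 28 of 32 fell nascent (−1.62) and 30 of 32 at 2 h (−1.98): Rnu11 had 12.6, 12.7 and 12.8 RPM with DMSO and 1.73, 1.01 and 1.47 RPM with triptolide at 2 h (−2.52 ± 0.17, limma adjusted p = 3.9e-16). The groups were apart at both genes. B3galt4 had 41.5, 43.0 and 44.9 RPM with DMSO, 14.1, 18.5 and 19.6 RPM with DRB (−1.27) and 9.56, 8.57 and 10.0 RPM with triptolide (−2.09). Of coding members lower with DRB in the unbound fraction at 2 h, 31 of 50 had another coding gene within reach.

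At 2 h triptolide also lowered unbound accessibility at 10 of 17 pluripotency genes (−0.50), with Sox2 at −0.75 and Nanog at −0.71, at 18 of 61 cytosolic ribosomal protein genes (−0.37), with Rplp0 at −1.09, at 12 of 22 splicing genes, with Tra2b at −0.99, and at 14 of 29 chromatin genes, with Mbd3 at −1.09. Eif4a1, an RNA helicase of translation initiation, fell by 1.29 and Cdc20 by 0.95. Of Polycomb-bound regulators 1 of 35 fell (Msx2, −0.66), a call that was lost without DMSO replicate 2 (limma adjusted p = 0.08) or triptolide replicate 2. Cisd2 rose with triptolide in the nascent collection, from 2.84, 0.425 and 3.68 to 5.96, 6.56 and 4.73 RPM (1.19 ± 0.24, limma adjusted p = 0.0015), without overlap. Without DMSO replicate 2, however, its limma adjusted p was 0.071. Rpl24 rose with DRB at 2 h, from 2.98, 2.04 and 2.35 to 5.69, 6.78 and 6.13 RPM (1.06 ± 0.18, limma adjusted p = 0.00029), and Btg2 by 0.89.

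The triptolide effect in nascent chromatin differed between the fractions. In a fit of both, it was lower in EdU than in unbound chromatin at 642 of 3971 members (16.2%) and higher at 25, where 7.09% of all TSSs were lower and 0.331% higher. Mcm6, which fell by 2.14 in EdU, had 11.8, 11.1 and 10.2 RPM with DMSO and 11.2, 9.73 and 9.05 RPM with triptolide in unbound chromatin (−0.13, limma adjusted p = 0.76), and its difference between fractions was −2.01 ± 0.35 (limma adjusted p = 0.00043). Flvcr1 had 20.2, 18.3 and 20.5 RPM with DMSO and 22.0, 19.0 and 20.1 RPM with triptolide in unbound chromatin, and a difference of −2.11 ± 0.28 (limma adjusted p = 7.6e-06). Their unbound libraries overlapped while the EdU libraries were apart. Tex19.1 (−2.23), Taf3, a TFIID subunit (−2.13), Nr2c2 (−2.13) and Gins4 (−1.93) differed likewise. Of small nuclear RNA members 18 of 32 differed the other way, with a smaller fall in EdU than in unbound chromatin. At low nascent EdU levels, as at Rnu11, there was less room to fall on the log2(RPM + 1) scale than in unbound chromatin. How far this limit enters the differences was not tested. The share lower was 2.92% (32 higher and 116 lower) with centring, 9.42% with scaling to background windows, 10.7% without unbound DMSO replicate 2 or 3 and 8.99% without unbound triptolide replicate 1.

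A stretch of 7 miRNA members shows a change along 1 S5P peak. The miR-290 to miR-295 genes lie within 2147 bp on the plus strand of chromosome 7, under an S5P peak 5450 bp wide, and make the miRNAs for which mouse embryonic stem cells are known. Mir291a and Mir292 share a window, as do Mir293 and Mir294, and neighbouring windows overlap, so these members are not independent. The windows of Mir290a, Mir291a, Mir293, Mir294 and Mir295 also overlap the long non-coding RNA gene D7Ertd143e. The later starts thus need not be promoters of their own. The mature 3p forms are shown with the seed (bases 2 to 8) in capitals, since miR-291a, miR-294 and miR-295 share the seed AAGUGCU and the starts of these genes bracket the change (RefSeq, GRCm38.p6).
mmu-miR-290a-3p (chr7:3218674-3218697, plus strand): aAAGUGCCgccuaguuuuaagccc
mmu-miR-291a-3p (chr7:3218968-3218989, plus strand): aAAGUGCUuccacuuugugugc
mmu-miR-291b-3p (chr7:3219529-3219550, plus strand): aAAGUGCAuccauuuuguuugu
mmu-miR-293-3p (chr7:3220390-3220411, plus strand): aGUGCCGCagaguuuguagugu
mmu-miR-294-3p (chr7:3220691-3220712, plus strand): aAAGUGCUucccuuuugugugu
mmu-miR-295-3p (chr7:3220815-3220837, plus strand): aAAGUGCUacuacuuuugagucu

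At Mir290a, the first gene, EdU libraries at 2 h had 8.58, 5.75 and 5.81 RPM with DMSO, 13.5, 26.1 and 13.6 RPM with DRB and 5.18, 3.41 and 4.79 RPM with triptolide. At Mir295, the last, they had 16.9, 23.7 and 29.0 RPM with DMSO, 5.24, 6.34 and 2.32 RPM with DRB and 3.46, 4.03 and 1.33 RPM with triptolide. DRB libraries lay above DMSO at the first gene and below it at the last. The log2 difference for DRB in EdU at 2 h was 1.24 at Mir290a (limma adjusted p = 0.02, and 0.28 without DRB replicate 2), 0.78 at Mir291a and Mir292, 0.16 at Mir291b, −1.13 at Mir293 and Mir294 (limma adjusted p = 0.077) and −2.15 at Mir295 (limma adjusted p = 2.9e-06). In unbound chromatin it was 0.25, −0.28, −0.55, −1.58 and −2.44 in the same order, of which the last 2 passed. Triptolide gave −1.0, −1.03, −1.5, −2.08 and −2.52 in unbound chromatin at 2 h, all past the threshold. Mir295 had 11.8, 16.6 and 18.4 RPM with DMSO and 2.25, 2.35 and 1.53 RPM with DRB in those unbound libraries, without overlap. The gain from nascent to 2 h in DMSO was 0.46 at Mir290a (limma adjusted p = 0.27) and 2.37 at Mir295 (limma adjusted p = 1.6e-09), and it shares its 2 h libraries with the drug comparisons. Differences between genes of the stretch were not tested, and they were chosen after their values were seen.

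Oriented by strand, the members were more accessible downstream than upstream of the start. The window centred 1000 bp downstream had 1.33 times the mean RPM of the one 1000 bp upstream in nascent EdU chromatin with DMSO (libraries 1.29 to 1.35) and 1.24 times at 2 h, while S5P promoters with an opposite TSS had ratios of 1.00 to 1.06. Single-direction TSSs without S5P had ratios of 1.21 and 1.27 in the same EdU libraries and of 1.29 in unbound nascent libraries with DMSO, and the differences between classes were not tested. With triptolide the ratio was 1.15 in nascent EdU chromatin, 0.18 below DMSO. It was 1.41 in unbound nascent chromatin, 0.21 above DMSO at 1.20. DRB gave 1.42 in EdU at 2 h against 1.24, and 1.36 and 1.45 in unbound nascent and 2 h chromatin against 1.20 and 1.20. In unbound 2 h chromatin triptolide gave 1.43 against 1.20. The 3 libraries of drug and DMSO were apart in these 6 of the 8 contrasts. They overlapped for DRB in nascent EdU chromatin (1.3 against 1.33) and for triptolide in EdU at 2 h (1.27 against 1.24).

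**Figure D5:**
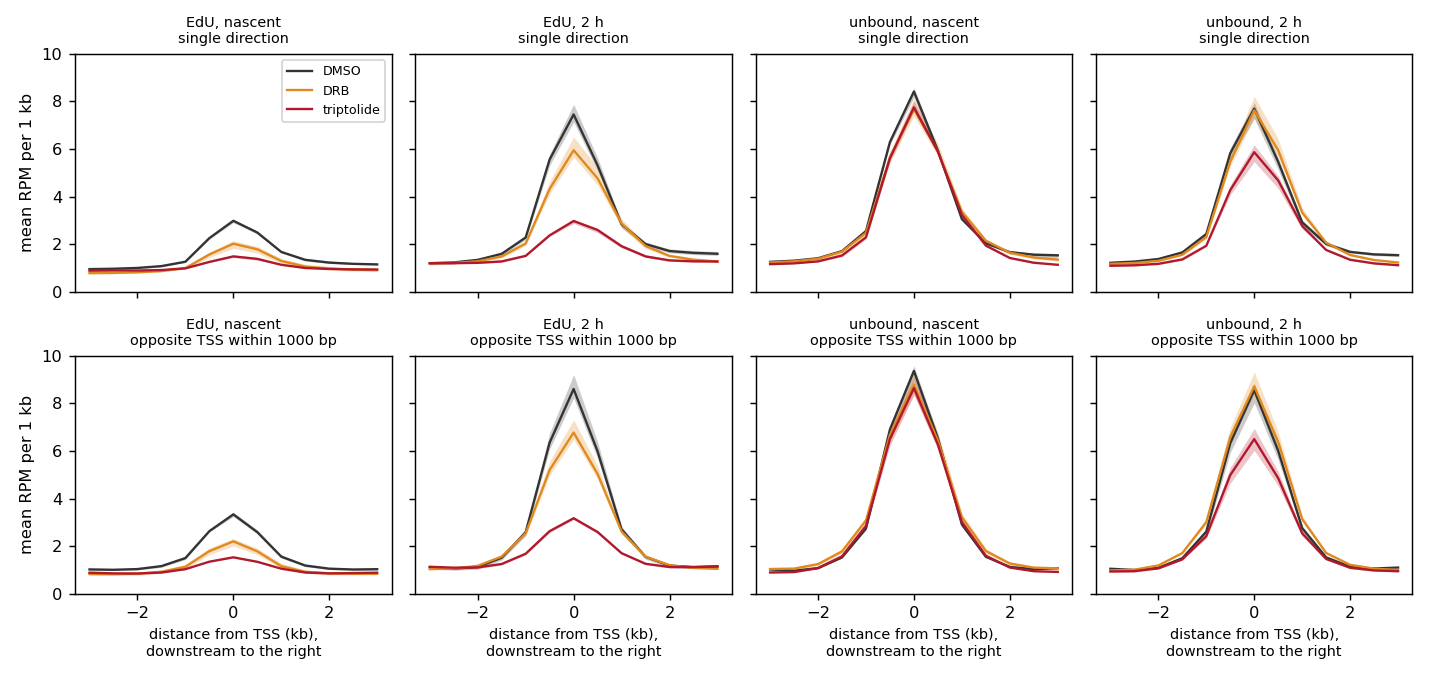
Mean accessibility in RPM by distance from the TSS, in kb, oriented so that transcription runs to the right, for the members (top row) and for S5P promoters with an opposite TSS (bottom row), by fraction, time and agent, with the range of the libraries shaded. The members' profiles are higher on the downstream side, with a downstream to upstream ratio of 1.33 in nascent EdU chromatin with DMSO.

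Triptolide lowered the EdU windows on both sides. In nascent chromatin 68 members fell upstream, where 0.593% of all TSSs did, and 111 downstream (2.80%), where 1.01% did. At 2 h 475 fell upstream (12%) and 445 downstream (11.2%), where 5.06 and 5.31% of all TSSs did. The nascent shares were sensitive to single libraries: upstream it was 1.72% and became 0.884, 0.505, 0.758, 0.808 and 0.884% without DMSO replicate 1 or 2 or triptolide replicate 1, 2 or 3, and downstream it became 1.24, 1.64 and 1.26% without DMSO replicate 2 or triptolide replicate 1 or 2. With centring they were 0.581% and 1.59%. The 2 h downstream share was 7.16 and 7.14% without 2 h DMSO replicate 1 and 2.

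Downstream of the start, more members rose than fell in unbound chromatin with DRB at both times. With triptolide this held in the nascent collection without centring, but not with centring, and not at 2 h. DRB at 2 h raised the window 1000 bp downstream at 471 of 3966 members (11.9%) and lowered it at 108, with a median of 0.18, where 3.93% of all TSSs rose and 1.04% fell. The libraries were apart at 463 of the 471. At the start itself the counts were 44 and 75, and 1000 bp upstream 64 and 101, where 1.61% of all TSSs rose and 0.931% fell. In the nascent collection DRB raised 369 (9.30%) and lowered 79, where 2.91% rose and 0.685% fell. Triptolide raised 295 (7.44%) and lowered 159 nascent, where 2.77% rose and 1.13% fell, and raised 269 (6.78%) and lowered 296 at 2 h, where 3.92% rose and 3.48% fell. With centring the counts were 320 higher and 118 lower for DRB at 2 h, 172 and 113 for DRB nascent, 137 and 220 for triptolide nascent and 139 and 432 for triptolide at 2 h, so the balance for triptolide nascent turned.

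Genes induced by p53, the DNA damage response factor, were looked at in these windows. Of 13 members named for 12 p53 targets, 8 rose downstream with DRB at 2 h (median 0.84, or 0.78 with centring), namely Aen, Bax, Btg2, Ccng1, Mdm2, Phlda3, Plk2 and Trp53inp1. In the nascent collection 8 rose with DRB (0.69) and Rrm2b fell (−0.56), and 6 rose with triptolide (0.44), whereas at 2 h with triptolide Ccng1 rose and 2 fell. Mdm2, the ubiquitin ligase of p53, had 6.22, 4.32 and 4.78 RPM with DMSO, 15.4, 18.7 and 23.5 RPM with DRB and 7.37, 6.05 and 8.10 RPM with triptolide at 2 h (1.72 ± 0.17 for DRB, limma adjusted p = 8.6e-12). In the nascent collection it had 7.77, 5.53 and 4.26 RPM with DMSO and 17.0, 12.9 and 15.2 RPM with DRB (1.25 ± 0.17, limma adjusted p = 3.6e-07). All DRB libraries of Mdm2 were above the others, while at its start window DMSO gave 5.31, 5.28 and 4.70 RPM and DRB 5.39, 7.89 and 6.13 RPM at 2 h. In the EdU fraction at 2 h the downstream window of Mdm2 had 3.37, 1.80 and 4.15 RPM with DMSO and 19.2, 14.6 and 21.2 RPM with DRB (2.26 ± 0.33, limma adjusted p = 3.7e-09).

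Ccng1, cyclin G1, had 2.46, 1.68 and 2.19 RPM downstream with DMSO, 9.74, 10.9 and 11 RPM with DRB and 6.22, 3.78 and 6.25 RPM with triptolide in unbound chromatin at 2 h (1.90 ± 0.18 for DRB, limma adjusted p = 4.6e-12, and 1.03 for triptolide, limma adjusted p = 5.2e-05). The order DMSO, triptolide, DRB held in every library of Ccng1. Phlda3 rose by 1.15, Btg2 by 1.09, Trp53inp1 by 0.98, Plk2 by 0.93, Bax by 0.84 and Aen by 0.84 with DRB. Outside the p53 list Naca, a ribosome-associated factor (1.44), the ribonucleoprotein gene Snu13 (1.36) and the zinc finger gene Zfp281 (1.33) rose. Of cytosolic ribosomal protein genes 18 of 61 rose downstream with DRB nascent and 19 of 61 at 2 h (medians 0.55 and 0.54), of translation factors 8 and 10 of 23, and of splicing genes 5 and 7 of 22. Polycomb-bound regulators had no member past the threshold (medians 0.03 and 0.04 over 35). Histone members fell downstream with triptolide, 21 of 27 nascent and 23 of 27 at 2 h, and with DRB at 2 h 4 fell. These downstream counts were made, and the genes named, after their values were seen.

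The share of members that rose downstream depends on single libraries in 4 comparisons. With DRB at 2 h it was 6.15% without DMSO replicate 3 and 7.36% without DRB replicate 3. With DRB nascent it was 5.67% without DMSO replicate 2, 3.91% without DRB replicate 1 and 6.03% without DRB replicate 2. With triptolide nascent it was 4.34 and 3.88% without triptolide replicate 1 and 2. With triptolide at 2 h it was 4.21 and 3.51% without DMSO replicate 2 and 3 and 4.51% without triptolide replicate 3.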

How the data were processed

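Reads were trimmed with Trim Galore 0.4.2 and aligned with Bowtie2 2.2.6.2 to mm10, per the submitters' processing notes, which give no parameters. The inhibitor values were deposited by the authors as log2(RPM + 1) in 1 kb windows every 500 bp, and the spike-in values as log2 in 5 kb regions, and no source used here says how the Drosophila reads entered them. Peaks were deposited as positions only, 1 list per group, and no source used here names the peak caller.

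The S5P ChIP carried 2.5% Drosophila chromatin, per the labels' protocols. RPM was recovered from the log2 values, and low values were whole reads, within 0.1 read, in 100% of cases, which gave the library sizes. Each TSS was read in the window nearest it, and windows with reads in 3 or more libraries (2 or more with spike-in) were tested with limma 3.58.1 in R 4.3.3, with all groups of a fraction in 1 fit, a pseudocount of 1 RPM, and Benjamini-Hochberg adjustment over all tested TSSs at 0.05. TSSs were named for the nearest RefSeq gene end within 1000 bp on their strand. Other steps used Python 3.11.15 with pandas 2.3.3, scipy 1.17.1, numpy 2.4.6 and, for plots, matplotlib 3.10.9. The limma step was tested on simulated data.

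Named genes were the 8 largest decreases and 5 largest increases among called, non-overlapping protein-coding members of each comparison, 2 per gene list and direction, and a set of reference genes. The members, lists and tests were chosen with earlier results of these data known. Alternatives were another pseudocount, no filter, centring, scaling to windows away from peaks, limma-voom, the mean of 3 windows, a fit of the compared groups only, a replicate block and leaving out each library. Spike-in values at enhancers were not used here. Depth was 1299334 to 5554604 reads in EdU and 2351201 to 14363372 in unbound libraries. One gene that the naming rule gave is not reported here.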

Additional observations from a re-analysis of the deposited data

Results flagged for a closer look

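The triptolide effect differed between 2 h and nascent EdU chromatin, by the interaction term in limma, at 45 members that were lower at 2 h and 2 that were higher. The differences on the log2 scale were −2.61 for H4c9, −2.48 for H1f3, −2.47 for H4c4 and −2.47 for H4c18, all histone genes, and −2.03 for the histone gene H3c10. Outside the histones they were −2.18 for Pabpc1, which binds the poly(A) tail, −2.10 for Capn15 and −2.0 for B3galt4. The H3c10 call was lost without any 1 of 9 libraries (limma adjusted p up to 0.16) and the Pabpc1 call without any 1 of 6 (up to 0.16). Windows with few reads in nascent DMSO libraries, such as that of H1f3, had less room to fall in nascent chromatin on the log2(RPM + 1) scale. How far this limit enters the differences was not tested.

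The nascent triptolide effect also differed between EdU and unbound chromatin, lower in EdU at 642 members and higher at 25. The difference was −2.23 for Tex19.1, −2.15 for Gclc, −2.13 for Nr2c2, −2.13 for Taf3, −2.11 for Flvcr1, −2.05 for Kif2a, −2.01 for Mcm6 and −1.99 for Avl9. It was 1.66 for 4930404N11Rik, 1.60 for Ldhd and 1.33 for H4c18. The Ldhd call was lost without any 1 of 5 libraries (limma adjusted p up to 0.064) and the H4c18 call without any 1 of 6 (up to 0.1). Windows with low levels in nascent EdU libraries had less room to fall there than in unbound chromatin, a limit whose part was not tested.

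With triptolide, the ratio of downstream to upstream accessibility moved by −0.18 in nascent EdU chromatin and by 0.21 in nascent unbound chromatin. Every triptolide library lay below the DMSO libraries in the first and above them in the second, and the difference between the fractions was not tested. Single-direction TSSs without S5P moved the same way in both.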

How the results depend on the processing

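Values are percentages of members called in the direction that the report leads with. A share in a single direction cannot turn, so these values do not test direction. With centring more members fell than rose in the unbound downstream window with nascent triptolide. At 2 h with triptolide more fell than rose in that window with and without centring. Centring each library on its median TSS gave 31.8% for 2 h against nascent in DMSO, 10.6% and 37.0% for triptolide nascent and at 2 h, 2.04% and 0.655% for DRB nascent and at 2 h, 0.428% for triptolide against DRB, 0.605% for the interaction, 2.92% for EdU minus unbound, 0.581% and 1.59% for the upstream and downstream nascent triptolide windows, and 3.45%, 4.34% and 3.5% for the unbound downstream gains with triptolide nascent, DRB nascent and triptolide at 2 h. Scaling to background windows gave 10.4% for DRB at 2 h, 0.0252% for triptolide against DRB, 6.68% for the interaction, 2.95% for unbound DRB nascent, 55.0% for unbound triptolide at 2 h and 9.42% for EdU minus unbound. A pseudocount of 0.25 gave 0.277% for DRB at 2 h, 2.70% for triptolide against DRB and 0.202% for the interaction. Without the filter the values were 2.44% for DRB nascent, 0.553% for DRB at 2 h, 0.276% for triptolide against DRB, 0.427% for the interaction, 1.10% for unbound DRB nascent and 0% for the spike-in. limma-voom gave 0.731% for DRB nascent, 6.33% for DRB at 2 h, 0.0756% for triptolide against DRB and 0.176% for the interaction. The mean of 3 windows gave 4.06% for DRB at 2 h and 2.02% for the interaction. Fitting only the compared groups gave 1.26% for DRB nascent, 11.2% for DRB at 2 h, 0% for triptolide against DRB, 2.29% for the interaction and 2.85% for unbound DRB at 2 h. The cause of these shifts was not tested.

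Leaving out 1 library gave 49.2 to 55.6% for 2 h against nascent, 17.9 to 23.9% for triptolide nascent, 3.30 to 8.67% for DRB nascent, 50.9 to 56.0% for triptolide at 2 h, 0.454 to 1.39% for DRB at 2 h, 0.302 to 2.22% for triptolide against DRB and 0.605 to 1.31% for the interaction. In unbound chromatin it gave 0 to 0% for 2 h against nascent, 3.90 to 5.64% and 0.705 to 1.97% for triptolide and DRB nascent, and 21.1 to 29.5% and 1.11 to 1.66% at 2 h. It gave 8.99 to 18% for EdU minus unbound and 0 to 98.6% for the spike-in, where the lone library is assumed to vary like the other group. The triptolide EdU flanks gave 0.505 to 1.29% upstream and 1.24 to 1.99% downstream nascent, and 8.03 to 9.17% and 7.14 to 8.60% at 2 h. The unbound downstream gains, an analysis chosen after seeing the data like the omission of libraries for the flanks, gave 3.88 to 8.85% and 3.91 to 10.4% for triptolide and DRB nascent, and 3.5 to 5.55% and 6.15 to 10.1% at 2 h.

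Deviations of same-numbered libraries correlated weakly, at −0.023 to 0.054 in EdU and −0.019 to 0.166 in unbound chromatin. For replicate 1 in unbound chromatin the correlations were 0.0617 to 0.166, always above those with other replicate numbers. Whether same-numbered libraries share a batch was not tested, and the main fits did not use the numbers. With the replicate block the spike-in share was 2.39%, and no other comparison moved by over 1.5 times. Over the 567 named values, 8607 alternative fits stayed on the same side of the threshold in 7502 cases, lost a call in 1065 and gained one in 40. Depth limits single nascent EdU windows, at a median of 2 to 11 reads.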
